A study of Mus musculus with 19 samples.

Results

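Hearts of Rev-erb alpha knockout mice taken at ZT12 were compared with hearts of wild-type mice taken at ZT0, to describe which transcripts set the knockout at lights off apart from the wild type at lights on. The comparison used 12 of the 19 arrays of the series, chosen by their titles: 5 from knockout mice at ZT12 (lights off) and 7 from C57Bl6J wild-type mice at ZT0 (lights on). The remaining 7 arrays, from C57Bl6J wild-type mice at ZT12, are given beside them. All 19 hearts, controls included, were removed and kept beating on a Langendorff apparatus, which feeds buffer into the coronary arteries from the aorta. After 20 min of stabilisation the flow was stopped for 20 min, and reperfusion then lasted 20 min. The labels name the knockout only as Reverb alpha KO. They give it no strain, and neither the deleted part of the gene nor the age of the mice is stated in them. With no knockout heart at ZT0, genotype and time of day changed together, and their parts in a difference from ZT0 cannot be told apart within it. The labels call the replicates biological, and each was taken as a separate heart.

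The mammalian clock is a feedback loop. BMAL1 (gene Arntl) with CLOCK or NPAS2 binds E-box motifs and activates the Per, Cry, Dbp and Rev-erb genes, and the PER and CRY proteins repress that activation. REV-ERB alpha (Nr1d1) and REV-ERB beta (Nr1d2) are nuclear receptors that repress Arntl, Clock, Npas2, Nfil3 and Cry1 through ROR elements. In wild-type heart REV-ERB levels are high in the second part of the light phase, when Arntl is low, and Arntl peaks near lights on.

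Each array gave log2 values of 22180 genes, each represented by 1 probe set. Of these genes 298 (1.34%) passed limma's test between knockout at ZT12 and wild type at ZT0 at an adjusted p under 0.05, with 214 higher (0.965%) and 84 lower (0.379%) in the knockout. The median log2 difference was -0.0076 over all genes, and the median size over the called genes was 0.47. At least 2-fold differences were found for 12 genes that rose and 2 that fell. The knockout and ZT0 arrays did not overlap for 381 genes (1.72%), and 200 of the 298 called genes were among them. Against wild type at ZT12 the same 5 knockout arrays gave 162 called genes (0.73%), with 98 higher (0.442%) and 64 lower (0.289%), and the wild-type groups differed in 250 genes (1.13%; 0.645% higher and 0.482% lower at ZT12) between the times. Knockout and wild-type ZT12 arrays did not overlap for 310 genes (1.4%). These comparisons share arrays, so their values are set side by side only.

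Before the genes, the tissue makeup of the hearts is given, because some arrays stood apart. Cardiomyocyte markers averaged 11.004 to 11.08 in the knockout and 11.01 to 11.05 at ZT0, and of 11 measured 0 passed (2 at an unadjusted p under 0.05), so the tissue label held in both groups. Atrial muscle markers were uneven. The mean of their 12 genes was 8.52 and 8.08 in knockout replicates 1 and 3, but 6.18, 6.46 and 6.17 in replicates 2, 4 and 5, against 7.69 to 8.71 at ZT0. At ZT12, 1 wild-type array (replicate 5) was also low, at 6.33. The atrial light chain gene Myl7 read 9.701, 4.05, 9.299, 5.32 and 4.24 in knockout replicates 1 to 5, and Sln, which encodes the atrial calcium pump regulator sarcolipin, read 10.32, 4.43, 10.44, 5.798 and 3.64, while at ZT0 they ran from 8.65 to 9.697 (median 8.92) and from 9.56 to 10.56 (median 9.69). Bmp10, a right atrial growth factor gene, was low in a further array of the knockout (replicate 3, at 4.13) and in 1 array at ZT0. Of the 12 atrial markers 2 had higher and 10 had lower means in the knockout, with a median log2 difference of -0.89. In whole hearts, fewer cells of a type and less RNA per cell cannot be told apart. Each call below that rests on the arrays low in atrial markers is given again without these 4 arrays, which leaves 2 knockout hearts.

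The output arm of the clock rose as a group in the knockout relative to ZT0. Among 12 measured E-box and D-box targets, 11 rose and 1 missed the threshold, with 0 falling, against 0.965% of all genes that rose. Their median log2 difference was 0.96, against -0.0076 for all genes. This list, too, was chosen with earlier results of these data known, so the counts are a description only. Against wild type at ZT12, 0 of the same 12 passed (limma; 2 at an unadjusted p under 0.05), against 0.73% of all genes. At that share 0 of 12 does not set these genes apart. Their median was 0.15, against -0.0030 for all genes. The promoters of 3 of these genes are shown because they carry the motifs by which such genes are known to be driven. The RefSeq windows (GRCm38.p6) run from 250 bases before to 50 bases after the start, 5′ to 3′ on the gene's strand, with CACGTG (E-box) and TTATGNAA (D-box) in capitals, searched on both strands.
Ciart (chr3:95882179-95882478, minus strand, 3 E-boxes): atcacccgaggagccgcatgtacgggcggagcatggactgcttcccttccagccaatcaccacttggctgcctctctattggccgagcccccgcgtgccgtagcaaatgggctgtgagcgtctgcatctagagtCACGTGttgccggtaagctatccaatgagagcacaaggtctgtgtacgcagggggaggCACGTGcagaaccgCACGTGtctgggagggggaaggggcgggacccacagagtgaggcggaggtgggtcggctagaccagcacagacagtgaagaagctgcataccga
Per1 (chr11:69098699-69098998, plus strand, 1 E-box, 1 D-box): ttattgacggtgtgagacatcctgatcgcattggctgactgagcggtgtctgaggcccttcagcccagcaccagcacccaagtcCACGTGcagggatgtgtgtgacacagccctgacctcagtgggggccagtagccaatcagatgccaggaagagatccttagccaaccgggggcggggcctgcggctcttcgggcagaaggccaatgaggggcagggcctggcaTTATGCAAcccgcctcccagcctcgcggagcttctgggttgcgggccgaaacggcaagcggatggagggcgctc
Per3 (chr4:151044616-151044915, minus strand, 2 D-boxes): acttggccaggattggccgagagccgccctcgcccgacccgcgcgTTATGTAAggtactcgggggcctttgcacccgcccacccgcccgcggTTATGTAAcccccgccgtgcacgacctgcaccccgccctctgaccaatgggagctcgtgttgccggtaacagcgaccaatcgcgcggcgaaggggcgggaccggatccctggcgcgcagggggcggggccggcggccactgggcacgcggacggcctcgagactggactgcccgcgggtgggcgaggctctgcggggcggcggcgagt
Over all RefSeq genes 8.09% had a window with CACGTG and 3.99% one with TTATGNAA. Of the 10 list genes with a window, 4 had CACGTG and 2 had TTATGNAA. RefSeq lists another window for Per1, which had neither motif, and the window of Dbp had neither. Of the 176 genes with a window that rose, 29 (16.5%) had CACGTG, and of the 62 that fell, 4 did (6.45%). TTATGNAA was found for 6 of the 176 (3.41%) and 1 of the 62 (1.61%). The ROR element core (TAGGTCA or TGGGTCA) was found for 9 (5.11%) and 2 (3.23%), against 7.35% of all RefSeq genes. These letters are a description and do not show binding.

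Dbp, which encodes a PAR-bZIP activator that binds D-boxes, had the largest rise of any named gene. It read 8.32, 8.37, 8.16, 8.03 and 8.56 in the 5 knockout hearts and 5.16 to 6.01 (median 5.54) at ZT0, so that the lowest knockout value lay above the highest at ZT0 (difference 2.73, 95% confidence interval 2.48 to 2.97, 6.61-fold; adjusted p = 5.27e-12). Wild-type hearts at ZT12 read 7.91 to 8.22 (median 8.12). The related factor genes Hlf and Tef rose 1.92-fold and 1.9-fold (adjusted p = 8.43e-06 and 8.43e-06). Averaging the probe sets of each gene ended the call for Tef (adjusted p = 0.105). Another, dimmer probe set of Tef went the other way, at -0.38 (adjusted p = 0.119 when all probe sets were tested). Ciart, whose protein represses CLOCK-BMAL1, read 6.37, 5.97, 5.61, 5.96 and 6.48 in the knockout and 3.95 to 4.79 (median 4.37) at ZT0 (difference 1.72, 95% confidence interval 1.38 to 2.06; adjusted p = 2.42e-06). Both groups were fully apart again for Ciart.

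The period gene Per3 read 5.77, 5.77, 5.55, 5.79 and 6.01 in the knockout, 3.77 to 4.42 (median 4.23) at ZT0 and 5.57 to 6.09 (median 5.801) in wild type at ZT12. Knockout and ZT12 wild type thus overlapped for Per3 (difference between them -0.02, 95% confidence interval -0.25 to 0.20), and both lay above ZT0 by more than the spread of the arrays (knockout minus ZT0 1.604; adjusted p = 4.57e-09). Per1 read 7.49, 7.09, 7.09, 7.51 and 7.704 against 6.03 to 6.45 (median 6.29) at ZT0, a rise of 2.16-fold with no overlap (adjusted p = 1.36e-05). Per2 was read only by a probe set that lists another gene beside it and is therefore not named here. Nr1d2, the gene of REV-ERB beta, read 8.05, 8.11, 7.797, 7.92 and 8.18 against 6.303 to 6.88 (median 6.54) at ZT0, 2.7-fold higher (adjusted p = 4.44e-09). This paralog of the deleted gene overlapped wild type at ZT12, where it read 7.72 to 8.04 (median 7.94) (difference 0.11, 95% confidence interval -0.08 to 0.31; adjusted p = 0.732). Cry2, a repressor of the loop, rose 1.99-fold, Wee1, the gene of a kinase that holds back mitosis, 1.77-fold, the repressor gene Bhlhe41 1.73-fold and the deubiquitinase gene Usp2 1.58-fold (adjusted p 1.36e-05 to 0.000181). Bhlhe40, the relative of Bhlhe41, did not pass at 0.37 (95% confidence interval 0.08 to 0.66; adjusted p = 0.237), although the fit adjusted for the atrial list mean called it. All 11 calls held without the 4 arrays low in atrial markers.

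**Figure D1:**
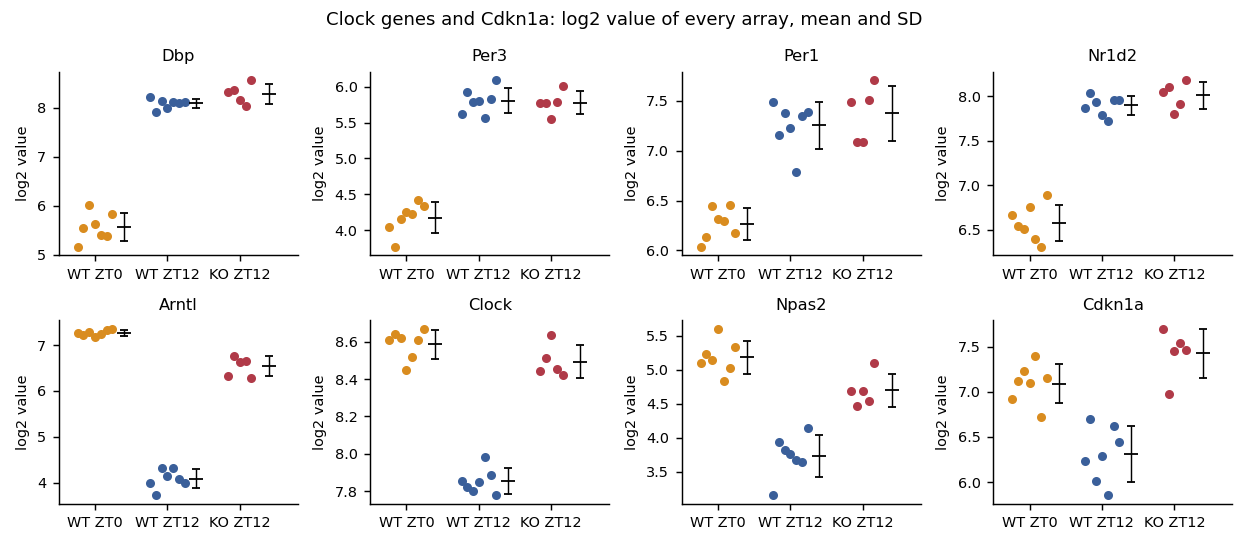
Log2 value of each array (points) for 8 genes in wild type at ZT0 (n = 7), wild type at ZT12 (n = 7) and knockout at ZT12 (n = 5), with the mean and SD of each group beside the points; the vertical axes do not start at 0. For Dbp, Per3, Per1 and Nr1d2 the knockout points lie with wild type at ZT12, and for Arntl, Clock and Npas2 they lie nearer to ZT0.

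The activators repressed by REV-ERB proteins were between the wild-type groups or near ZT0. Arntl read 6.33, 6.77, 6.64, 6.66 and 6.28 in the knockout, 7.18 to 7.36 (median 7.27) at ZT0 and 3.72 to 4.31 (median 4.09) in wild type at ZT12. The 5 knockout values lay below every ZT0 value and above every ZT12 value. Arntl was thus 1.66-fold lower than at ZT0 (difference -0.73, 95% confidence interval -0.94 to -0.52; adjusted p = 0.000191), and 5.48-fold higher than in wild type at the same time of day (difference 2.45; adjusted p = 1.24e-12). The fall from ZT0 was called in every setting tried, at -0.78 without the 4 arrays low in atrial markers (adjusted p = 0.00505). Its promoter and that of Nfil3 are shown because each holds a ROR element core (TAGGTCA or TGGGTCA, or its reverse complement, in capitals), the motif that REV-ERB and ROR receptors share.
Arntl (chr7:113207261-113207560, plus strand): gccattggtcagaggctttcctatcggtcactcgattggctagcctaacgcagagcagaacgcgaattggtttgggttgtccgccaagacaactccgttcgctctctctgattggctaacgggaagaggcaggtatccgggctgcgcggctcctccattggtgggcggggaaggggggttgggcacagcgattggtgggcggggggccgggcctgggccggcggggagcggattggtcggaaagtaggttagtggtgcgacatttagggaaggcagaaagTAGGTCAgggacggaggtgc
Nfil3 (chr13:52980990-52981289, minus strand): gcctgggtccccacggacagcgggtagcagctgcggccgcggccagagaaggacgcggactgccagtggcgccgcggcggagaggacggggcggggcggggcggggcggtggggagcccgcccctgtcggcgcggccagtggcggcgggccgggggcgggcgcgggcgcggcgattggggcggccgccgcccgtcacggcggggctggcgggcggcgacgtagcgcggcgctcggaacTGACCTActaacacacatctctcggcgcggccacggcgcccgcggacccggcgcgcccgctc
For Arntl, RefSeq lists 2 windows, and the core lies after the start in the one shown, with none in the other. Such a core was found in a window of 7.35% of all RefSeq genes, and Arntl and Nfil3 were the 2 of the 5 measured genes of this list that had it.

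Clock, which encodes the partner of BMAL1, read 8.44, 8.51, 8.64, 8.45 and 8.42 in the knockout and 8.45 to 8.67 (median 8.61) at ZT0, and the groups overlapped (difference -0.09, 95% confidence interval -0.22 to 0.04; adjusted p = 0.591). Wild type at ZT12 lay below all of these values, at 7.78 to 7.99 (median 7.85) (knockout minus wild type at ZT12 0.64; adjusted p = 4.77e-06). Npas2, which encodes the other partner, read 4.68, 4.47, 4.68, 4.54 and 5.09 against 4.83 to 5.600 (median 5.15) at ZT0 and 3.15 to 4.15 (median 3.76) in wild type at ZT12. For Npas2 4 of 5 knockout values lay below every ZT0 value and all 5 above every ZT12 value. Its difference from ZT0 was -0.49 (95% confidence interval -0.79 to -0.19; adjusted p = 0.113) and did not pass, and that from wild type at ZT12 was 0.96 (adjusted p = 0.0017). Nfil3, the gene of a repressor that competes with DBP at D-boxes, was at -0.30 (95% confidence interval -0.54 to -0.06; adjusted p = 0.262), and Cry1 at 0.14 (adjusted p = 0.708). Of the 5 measured genes of this list, 0 rose, 1 fell and 4 did not pass relative to ZT0, and 3 were higher than in wild type at ZT12 (Arntl, Clock and Npas2). Over all genes 0.965% rose and 0.379% fell relative to ZT0, and 0.442% were higher than in wild type at ZT12.

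**Figure D2:**
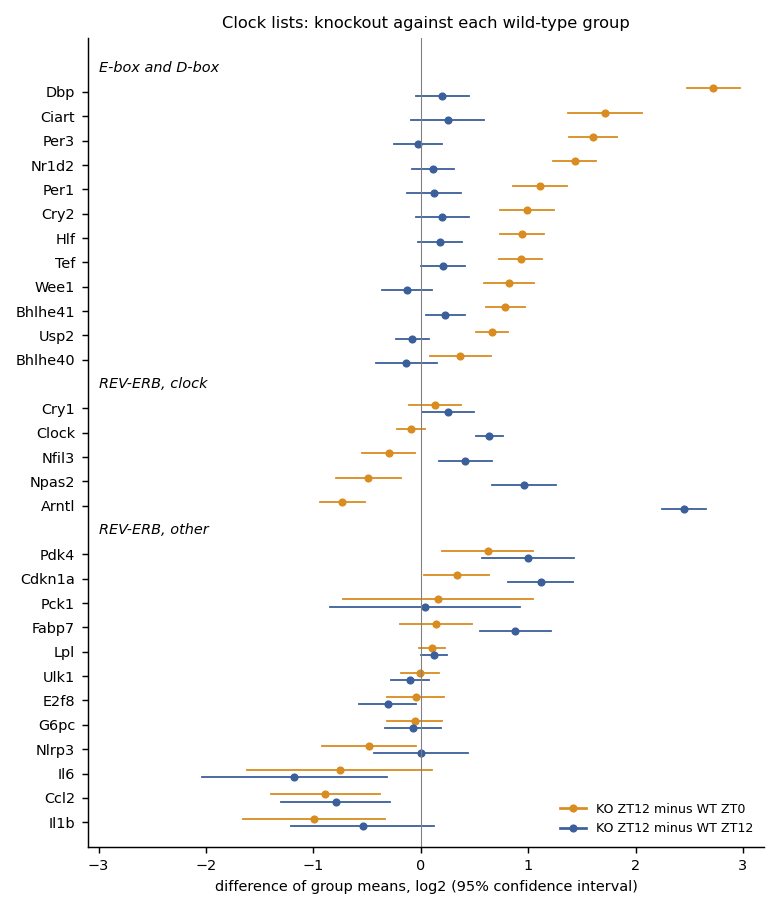
Difference of group means on the log2 scale (points) with its 95% confidence interval (bars) for the genes of 3 lists, for the knockout against wild type at ZT0 in orange and against wild type at ZT12 in blue; both share the knockout arrays. The E-box and D-box genes lie right of 0 in orange and near 0 in blue, from 0.37 for Bhlhe40 to 2.73 for Dbp in orange, while Arntl is at -0.73 in orange and 2.45 in blue.

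Other genes that REV-ERB proteins are known to repress did not pass relative to ZT0. Of 12 measured, 0 rose and 0 fell (limma, with 5 at an unadjusted p under 0.05), against 0.965% and 0.379% of all genes. At those shares 0 of 12 does not set the list apart. The median difference was -0.025. Relative to wild type at ZT12, 3 were higher, against 0.442% of all genes. Cdkn1a, the gene of the cell cycle inhibitor p21, read 7.699, 6.98, 7.45, 7.54 and 7.46 in the knockout and 6.72 to 7.397 (median 7.12) at ZT0 (difference 0.33, 95% confidence interval 0.03 to 0.64; adjusted p = 0.338). Wild type at ZT12 was lower, at 5.85 to 6.703 (median 6.29) (1.12; adjusted p = 0.000246). The fatty acid binding protein gene Fabp7 was at 0.14 relative to ZT0 (adjusted p = 0.791) and at 0.88 relative to ZT12 (adjusted p = 0.00822). Pdk4, which encodes a kinase that shuts off pyruvate oxidation, read 10.43, 10.11, 9.82, 10.47 and 11.28 against 9.46 to 10.13 (median 9.75) at ZT0, with overlap (difference 0.62; adjusted p = 0.165, and 95% confidence interval 0.57 to 1.43 relative to ZT12, adjusted p = 0.0223). The cytokine genes Il1b, Il6 and Ccl2 were at -0.99, -0.75 and -0.89 (adjusted p = 0.15, 0.485 and 0.0789). Knockout replicate 1 held the highest Il6 and Ccl2 values of its group, at 6.28 and 6.27. Slc41a3, the gene of a magnesium transporter, belongs to the signalling and receptor list, not to this one, and was named after its values were seen. Its difference was 0.40 relative to ZT0 (95% confidence interval 0.19 to 0.62; adjusted p = 0.0534) and 1.76 relative to wild type at ZT12 (adjusted p = 9.55e-10).

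Kcne1, Ddit4, Mylk4 and Lcn2 differed between the knockout and both wild-type groups, with no overlap for Kcne1 and Ddit4. Kcne1, which encodes the beta subunit of the slow delayed rectifier potassium channel, read 6.205, 6.82, 6.31, 6.39 and 6.52 in the knockout, 4.09 to 4.72 (median 4.38) at ZT0 and 4.09 to 4.77 (median 4.61) in wild type at ZT12. All 5 knockout hearts lay above all 14 wild-type hearts, by 4.23-fold relative to ZT0 (difference 2.08, 95% confidence interval 1.83 to 2.34; adjusted p = 7.37e-10) and 3.8-fold relative to ZT12 (adjusted p = 3.29e-09). The wild-type groups themselves differed by 0.15 (adjusted p = 0.648). Without the 4 arrays low in atrial markers Kcne1 was at 1.89 (adjusted p = 1.10e-05).

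Ddit4, whose product REDD1 inhibits the growth kinase mTORC1, read 6.07, 6.199, 5.96, 6.78 and 6.26 in the knockout, above all wild-type hearts at ZT0 (5.25 to 5.74 (median 5.59)) and ZT12 (4.32 to 5.17 (median 4.94)). It rose 1.63-fold from ZT0 (adjusted p = 0.00993), a call lost without the 4 arrays low in atrial markers (0.46; adjusted p = 0.151) and after adjustment for the atrial list mean (0.71; adjusted p = 0.0588). Mylk4, the gene of a myosin light chain kinase family member, lay lowest in the knockout, at 7.02, 6.92, 7.11, 6.62 and 6.68 against 7.099 to 7.54 (median 7.29) at ZT0 and 7.81 to 8.19 (median 7.96) at ZT12. Knockout and ZT0 values touched for Mylk4, with the highest knockout heart above the lowest at ZT0, and the fall of -0.45 (adjusted p = 0.0197) was lost without the 4 arrays (-0.26; adjusted p = 0.551). Lcn2, which encodes the secreted siderophore-binding protein lipocalin 2, read 5.31, 5.79, 5.29, 4.56 and 4.704 against 3.92 to 4.58 (median 4.33) at ZT0 and 3.84 to 4.62 (median 4.36) in wild type at ZT12. Knockout replicate 4 lay inside both wild-type ranges and the other 4 hearts above them. Lcn2 rose 1.8-fold from ZT0 (adjusted p = 0.0142), and its difference from ZT12 was 0.89 (adjusted p = 0.0179). Adjusted for the atrial list mean, Lcn2 was at 0.78 (adjusted p = 0.113).

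A further set of genes apart from both wild-type groups was chosen after their values were seen. Rit1, which encodes a RAS family GTPase, read 7.93, 8.301, 7.68, 8.05 and 7.96 in the knockout, 6.91 to 7.29 (median 7.202) at ZT0 and 7.16 to 7.37 (median 7.23) at ZT12, with no overlap (differences 0.83 and 0.74; adjusted p = 1.62e-05 and 0.000201). Crispld2, the gene of a secreted cysteine-rich protein, read 7.59, 7.44, 7.39, 7.58 and 7.34 against 6.696 to 6.94 (median 6.83) and 6.69 to 6.95 (median 6.83) (differences 0.64 and 0.64; adjusted p = 9.52e-06 and 1.96e-05). The glutathione transferase gene Gstm7, which has close relatives that may share its signal, was 1.54-fold and 1.68-fold higher (adjusted p = 0.000948 and 0.000201), and at 0.47 without the 4 arrays (adjusted p = 0.139). Alox5, which encodes the lipoxygenase that starts leukotriene synthesis, was lower in the knockout than in every wild-type heart, at 4.68, 4.77, 4.57, 4.62 and 4.83 against 5.17 to 5.51 (median 5.23) and 5.05 to 5.49 (median 5.38) (differences -0.57 and -0.63; adjusted p = 0.00035 and 0.000201). Another, dimmer probe set of Alox5 was at -0.030 (adjusted p = 0.938). Pik3r1, the gene of the regulatory subunit of phosphoinositide 3-kinase, read 9.02, 8.83, 9.22, 9.104 and 9.08 against 8.17 to 8.38 (median 8.205) and 8.57 to 8.75 (median 8.61) (differences 0.79 and 0.41; adjusted p = 8.07e-07 and 0.0061). Rit1, Crispld2, Alox5 and Pik3r1 stayed called without the 4 arrays.

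**Figure D3:**
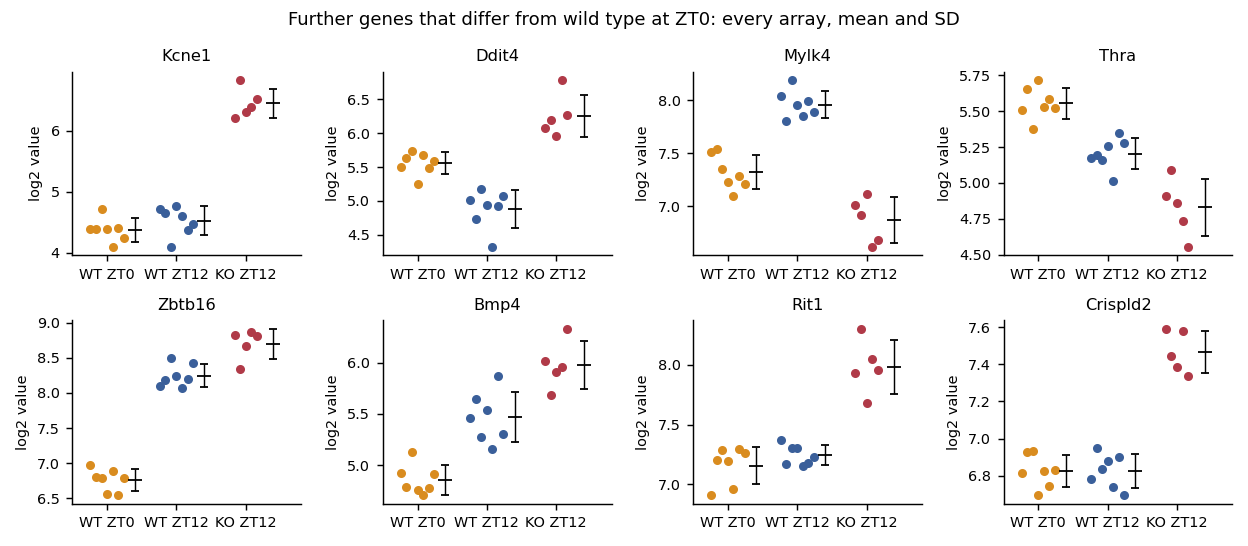
Log2 value of each array (points) for 8 genes in wild type at ZT0 (n = 7), wild type at ZT12 (n = 7) and knockout at ZT12 (n = 5), with the mean and SD of each group; the vertical axes do not start at 0. All 5 knockout points of Kcne1, Ddit4, Rit1 and Crispld2 lie above all 14 wild-type points, and those of Mylk4 lie below all wild-type points at ZT12 but overlap ZT0.

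Among the lists used here, steroid-responsive genes held the largest share that rose outside the clock outputs. The lists were chosen with earlier results of these data known, so this share and its rank are a description only. Of 20 measured genes known to respond to glucocorticoids 11 rose, 0 fell and 9 did not pass, against 0.965% of all genes that rose, with a median difference of 0.62. Of the 20, 5 were higher than wild type at ZT12, against 0.442% of all genes (median 0.25). The list mean was 6.73 to 7.02 in the knockout hearts, above all ZT0 hearts (6.14 to 6.38) and all wild-type ZT12 hearts (6.25 to 6.59). Per1 belongs to this list as well as to the clock outputs. Cdkn1a and Pdk4 belong also to the other genes repressed by REV-ERB proteins, described above. Both are counted among the 5 higher than wild type at ZT12, and neither passed relative to ZT0. Zbtb16, the gene of the zinc-finger repressor PLZF, read 8.83, 8.35, 8.66, 8.86 and 8.81 against 6.54 to 6.98 (median 6.79) at ZT0, with no overlap (3.82-fold, difference 1.94, 95% confidence interval 1.72 to 2.15; adjusted p = 1.09e-10). The median of wild type at ZT12 lay between, with values of 8.07 to 8.502 (median 8.197) (knockout minus ZT12 0.46; adjusted p = 0.0361). The knockout heart at 8.35 lay inside that range. Sult1a1, which encodes a sulfotransferase, rose 1.98-fold, at 7.35, 6.77, 7.39, 6.95 and 6.77 against 5.64 to 6.29 (median 6.11) (adjusted p = 7.79e-05).

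The other list genes that rose, given outside the naming rule to complete the count, were Klf9 (a Krüppel-like repressor; 1.53-fold, adjusted p = 8.27e-05), Tsc22d3 (the leucine zipper protein GILZ; 1.46-fold, adjusted p = 0.00169) and Fkbp5 (a co-chaperone of the glucocorticoid receptor; 1.57-fold, adjusted p = 0.0249). Fkbp5 lost its call without knockout replicate 1 or 3 or ZT0 replicate 5 or 6 (adjusted p 0.0541 to 0.0722 over all settings that ended it). Cebpb rose 1.61-fold (adjusted p = 0.00364), Fam107a 1.72-fold (adjusted p = 0.00311) and Arrdc2 1.27-fold (adjusted p = 0.0254), besides Ddit4 and Lcn2. Arrdc2 was at 0.35 with the 4 arrays and at 0.36 without them (adjusted p = 0.283). Without the 4 arrays 2 of the 11 calls were lost, those for Ddit4 and Arrdc2. Klf15, a cardiac Krüppel-like factor gene that is read here with the ion channel genes it controls, rose 1.55-fold (adjusted p = 0.00286), and was at 0.54 without the 4 arrays (adjusted p = 0.151).

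Among the remaining large rises, Tcap, the gene of telethonin, which caps titin at the Z-disc, read 10.19, 10.203, 10.27, 10.34 and 10.38 in the knockout and 8.505 to 9.14 (median 8.89) at ZT0, 2.77-fold higher (difference 1.47, 95% confidence interval 1.29 to 1.65; adjusted p = 7.71e-10). Wild type at ZT12 was just below the knockout, at 9.86 to 10.07 (median 9.999) (difference 0.28; adjusted p = 0.179). Bmp4, the gene of a bone morphogenetic protein, read 6.02, 5.68, 5.91, 5.95 and 6.33 against 4.71 to 5.13 (median 4.79) at ZT0 and rose 2.17-fold (adjusted p = 8.43e-06). It was also higher than in wild type at ZT12 (0.51; adjusted p = 0.0437), with 1 ZT12 heart inside the knockout range. Timp4, a metalloproteinase inhibitor gene of the heart, rose 2.13-fold (6.93, 6.37, 7.36, 6.73 and 6.85 against 5.53 to 6.03 (median 5.81); adjusted p = 6.45e-05), and its relative Timp3 1.49-fold (adjusted p = 0.00599). Xdh, which encodes the urate-forming enzyme xanthine dehydrogenase, rose 2.01-fold (8.14, 7.77, 8.14, 8.03 and 8.17 against 6.697 to 7.26 (median 7.05); adjusted p = 1.54e-06). The adaptor gene Klhl38 rose 1.93-fold (adjusted p = 8.43e-06). Another, dimmer probe set of Klhl38 was at 0.26 (adjusted p = 0.252 when all probe sets were tested). All 15 of the largest rises, the clock outputs among them, were called in every setting, with the 4 arrays and without them.

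The antioxidant list had 3 genes that rose and 0 that fell among 24, against 0.965% of all genes that rose. Gstt2 and Gsta3, both glutathione transferase genes, rose 1.85-fold and 1.59-fold (adjusted p = 0.000944 and 0.0075), and the quinone reductase gene Nqo1 rose 1.35-fold (adjusted p = 0.0397), a call lost in 16 settings, without the 4 arrays among them (0.22; adjusted p = 0.662). Gsta3 has close relatives, and which of them its probes read is uncertain. Of these 3 genes none passed against wild type at ZT12, where 0.73% of all genes did. Their differences there were -0.15, 0.17 and 0.02.

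Some genes of protein folding in the endoplasmic reticulum fell in the knockout relative to ZT0, all of them calls that were lost without the 4 arrays low in atrial markers. Of 21 measured genes of the unfolded protein response and its ATF4 arm 1 rose, 7 fell and 13 did not pass (median -0.26). Over all genes 0.379% fell. Relative to wild type at ZT12, 0 passed (limma; 3 at an unadjusted p under 0.05; median -0.078), against 0.73% of all genes. Hyou1, which encodes an ER chaperone, read 6.11, 6.100, 6.37, 6.26 and 5.99 against 6.54 to 6.83 (median 6.66) at ZT0, with no overlap (difference -0.52, 95% confidence interval -0.68 to -0.35; adjusted p = 0.000779). Hspa5, the gene of the chaperone BiP, read 7.69, 7.64, 7.58, 7.66 and 7.69 against 7.78 to 8.41 (median 8.096) (difference -0.47; adjusted p = 0.00683), again with no overlap. The stress transcription factor gene Atf4 was at -0.45 (adjusted p = 0.0322). Outside the naming rule, Creld2, Dnajc3, Xbp1 and Hsp90b1 were lower too, at -0.44, -0.41, -0.41 and -0.31 (adjusted p 0.0141 to 0.0421). Herpud1, which encodes a protein of ER-associated degradation, went the other way, at 10.18, 9.98, 10.15, 10.06 and 10.18 against 9.52 to 9.797 (median 9.57) (1.43-fold higher; adjusted p = 7.42e-05). Without the 4 arrays, 7 of 7 falls lost their calls (adjusted p 0.112 to 0.511; Hyou1 at -0.44 and Hspa5 at -0.49), and 5 of 7 after adjustment for the atrial list mean. Atf4, Creld2, Dnajc3, Xbp1 and Hsp90b1 were then at -0.45, -0.50, -0.26, -0.36 and -0.34 without the 4 arrays. Over all settings Dnajc3 lost its call in 16, Hsp90b1 in 15, Creld2 in 12 and Atf4 in 11. Xbp1, Hspa5 and Hyou1 lost theirs in 3, 2 and 1. Without any 1 of the 12 compared arrays, 2 to 6 genes of the list fell.

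Among the 15 largest falls, 5 held in every setting, those of Arntl and of Epha4, Ppp1r3c, Dct and Thra. Epha4, which encodes an ephrin receptor, read 7.25, 6.896, 7.31, 6.72 and 6.86 against 7.81 to 8.13 (median 7.85) at ZT0 and fell 1.88-fold (difference -0.91, 95% confidence interval -1.13 to -0.69; adjusted p = 2.55e-05), with no overlap. It was at -0.64 without the 4 arrays (adjusted p = 0.0144). Ppp1r3c, which encodes a glycogen-targeting phosphatase subunit, read 8.13, 8.301, 8.38, 8.104 and 8.14 against 8.74 to 9.001 (median 8.81) and fell 1.55-fold (adjusted p = 6.73e-05). For both, wild type at ZT12 lay near the knockout (-0.24 and -0.14; adjusted p = 0.417 and 0.571). Dct, the gene of the melanin-pathway enzyme dopachrome tautomerase, was dim, at 3.59, 3.42, 3.17, 3.53 and 3.902 against 3.93 to 4.48 (median 4.13), and differed by -0.64 (adjusted p = 0.00798). Thra, the thyroid hormone receptor alpha gene, is described with its neighbour Nr1d1 below.

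The other 10 of the 15 largest falls lost their calls without the 4 arrays low in atrial markers, and 9 of them after adjustment for the atrial list mean. Most were also lost in settings that do not concern atrial markers, such as leaving out 1 array. Over all settings the call was lost in 17 for Neurl3, 16 for Acta1 and Gnao1, 12 for Myl1 and Has2, and 11 for Scn4b and Egln3. For Cpxm2, Sox4 and Tnfrsf12a it was lost in 3, 2 and 1. Acta1, which encodes skeletal alpha actin, a fetal actin of the heart, read 8.098, 6.82, 7.37, 7.33 and 5.78 against 7.66 to 9.26 (median 8.44) (difference -1.47, 95% confidence interval -2.23 to -0.71; adjusted p = 0.0458), with replicate 1 inside the ZT0 range. Without the 4 arrays it was at -0.82 (adjusted p = 0.512). Gnao1, the gene of the G protein alpha o subunit, read 7.24, 5.91, 6.81, 5.79 and 5.195 against 6.99 to 7.52 (median 7.12). Its 3 lowest values were those of the knockout hearts low in atrial markers, and replicates 1 and 3 lay at or near the ZT0 range (difference -0.98, adjusted p = 0.0426, and -0.14, adjusted p = 0.89, without the 4 arrays). Myl1, which encodes an alkali myosin light chain, showed the same split, at 6.32, 5.502, 6.41, 5.500 and 5.04 against 6.23 to 7.12 (median 6.57) (difference -0.83, adjusted p = 0.0394, and -0.21, adjusted p = 0.818). Wild-type ZT12 replicate 5, also low in atrial markers, read 6.98 for Gnao1 and 6.15 for Myl1.

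Scn4b, the gene of a sodium channel beta subunit, read 3.63, 3.67, 3.75, 4.25 and 3.72 against 4.27 to 5.07 (median 4.45) at ZT0 (difference -0.80; adjusted p = 0.0284). It was as far from ZT0 without the 4 arrays (-0.91), but no longer passed with 2 knockout hearts (adjusted p = 0.181). Tnfrsf12a, the receptor gene of the cytokine TWEAK, was at -0.80 (adjusted p = 0.00322) and at -0.75 without them (adjusted p = 0.093). Egln3, which encodes an oxygen-sensing prolyl hydroxylase, was at -0.74 and -0.68 (adjusted p = 0.0322 and 0.31). The others were Neurl3 (-0.71, and -0.97 without the 4 arrays), the transcription factor gene Sox4 (-0.65 and -0.55), Cpxm2 (-0.65 and -0.48) and the hyaluronan synthase gene Has2 (-0.65 and -0.45). Their adjusted p was 0.00532 to 0.0435 and, without the 4 arrays, 0.08 to 0.551. Another, dimmer probe set of Cpxm2 was at 0.048 (adjusted p = 0.927 when all probe sets were tested). Averaging the probe sets of each gene ended the call for Cpxm2.

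**Figure D4:**
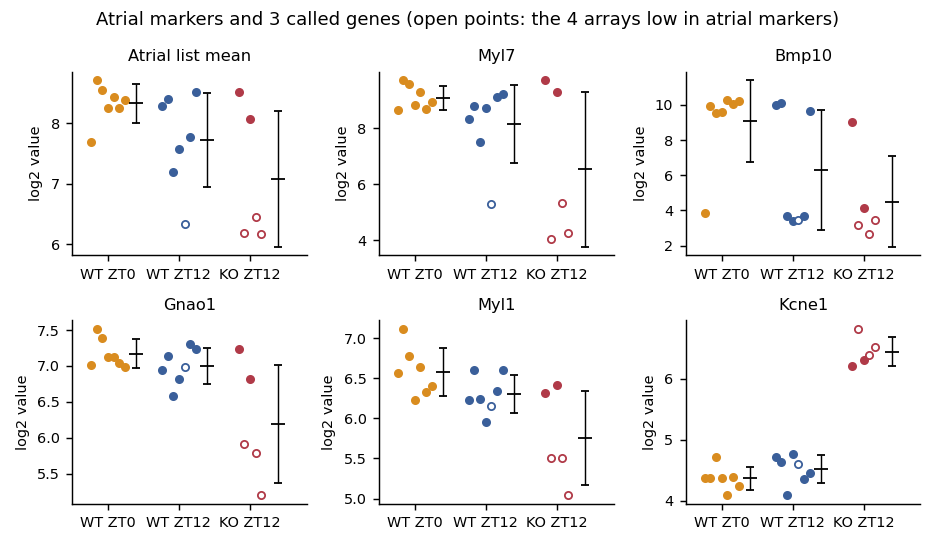
Log2 value of each array (points), or mean log2 value of the 12 atrial markers, in wild type at ZT0 (n = 7), wild type at ZT12 (n = 7) and knockout at ZT12 (n = 5), with the mean and SD of each group; open points are the 4 arrays with an atrial list mean under 7, and the vertical axes do not start at 0. The open knockout points hold the lowest Myl7, Gnao1 and Myl1 values, while Kcne1 is high in all 5 knockout hearts.

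The targeted gene and its chromosomal neighbours were read separately. Nr1d1 lies on chromosome 11. Its probe set read 6.35, 6.396, 6.298, 6.36 and 6.51 in the knockout, 5.76 to 6.67 (median 6.12) at ZT0 and 6.46 to 7.28 (median 6.64) in wild type at ZT12, and the knockout values lay inside the ZT0 range (difference 0.23, 95% confidence interval -0.07 to 0.54; adjusted p = 0.559). Where the probes lie relative to the deleted part is not stated in the sources used here, so the probe set neither checks the labels nor goes against them. Of the 25 tested genes on each side of Nr1d1 3 of 50 (6%) were called, against 1.34% of all genes. In the comparison with wild type at ZT12, 2 of 50 were called, against 0.73% of all genes. Thra, which is the adjacent gene and overlaps the end of Nr1d1 on the opposite strand, read 4.91, 5.09, 4.86, 4.74 and 4.55 against 5.38 to 5.72 (median 5.53) at ZT0 and 5.01 to 5.35 (median 5.195) at ZT12. It fell 1.65-fold from ZT0 (difference -0.73, 95% confidence interval -0.90 to -0.55; adjusted p = 2.55e-05) and was also below wild type at ZT12 (-0.37; adjusted p = 0.0401). The Mediator subunit gene Med1, 23 tested genes away, rose 1.3-fold (adjusted p = 0.0397), a call lost in 16 settings, without the 4 arrays among them (0.35; adjusted p = 0.416). Med1 was the other neighbour called against wild type at ZT12 (0.39; adjusted p = 0.0465), and the wild-type groups differed by -0.014. The third gene called relative to ZT0 was Tcap, 17 tested genes away, which did not pass against wild type at ZT12.

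Of 17824 probe sets that list no gene or several, 35 (0.196%) were called when all probe sets were tested, with 23 higher and 12 lower. In that same test 172 of the 22180 probe sets used for the genes were called. The largest differences on the arrays were among them. In 3 probe sets without a listed gene the knockout hearts read 7.48 to 8.41, and all 14 wild-type hearts read 1.73 to 2.74. Those probe sets, 17549080, 17549054 and 17549096, were 63.1-fold, 60.2-fold and 45.1-fold higher than at ZT0 (adjusted p = 4.74e-17 each). A further 2 without a listed gene, 17549150 and 17549062, rose 5.78-fold and 4.45-fold with no overlap. These 5 probe sets separated the knockout arrays from the wild-type arrays in each of the 19 hearts, and what they read is not identified here.

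The remaining pathway lists held 0 to 3 called genes each relative to ZT0, against 1.34% of all genes called in either direction (0.965% higher, 0.379% lower). Of 26 ion channel and calcium genes 2 rose (Kcne1 and Klf15) and 1 fell (Scn4b). Of 16 fetal and stress genes 1 rose (Tcap) and 2 fell (Acta1 and Mylk4). Of 21 hypoxia targets 1 rose (Ddit4) and 2 fell (Egln3 and P4ha1). P4ha1, a collagen prolyl hydroxylase gene, was at -0.47 (adjusted p = 0.0394), and at -0.36 without the 4 arrays (adjusted p = 0.503). The call for P4ha1 was lost in 16 settings. Of 24 genes of signalling and receptors 2 rose and 1 fell, namely Bmp4, the magnesium transporter gene Slc41a1 (0.40; adjusted p = 0.00714) and Thra. Of 20 heat shock genes 1 rose, the small heat shock protein gene Hspb7 (0.33; adjusted p = 0.0374), and 1 fell, the HSP90 co-chaperone gene Chordc1 (-0.41; adjusted p = 0.0254), with a list median of -0.18. Without the 4 arrays, which leaves 2 knockout hearts, Slc41a1, Hspb7 and Chordc1 were at 0.42, 0.29 and -0.47. Their calls were lost (adjusted p = 0.136, 0.443 and 0.128). Over all settings these calls were lost in 1, 14 and 10, in the same order. Slc25a20, the carnitine carrier gene of mitochondria, was the 1 of 30 fatty acid oxidation genes that rose, at 0.36 (adjusted p = 0.017). It was at 0.25 without the 4 arrays (adjusted p = 0.49).

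In glycolysis 1 of 27 genes fell, Pfkfb2, which encodes a cardiac phosphofructokinase activator. It was at -0.47 (adjusted p = 0.0197), and at -0.45 without the 4 arrays (adjusted p = 0.291). The death receptor gene Fas was the 1 of 22 p53 targets that rose, at 0.51 (adjusted p = 0.0131). It was at 0.52 without the 4 arrays (adjusted p = 0.102). Timp3 was the 1 of 27 matrix genes that rose. Srebf2, which encodes the master regulator of sterol synthesis, was the 1 of 21 lipid synthesis genes that fell, at -0.42 (adjusted p = 0.0257). It was at -0.39 without the 4 arrays (adjusted p = 0.187). Of 24 cytokine genes, 31 immediate early genes, 25 oxidative phosphorylation genes, 19 autophagy genes, 19 cell division genes and 10 other clock genes 0 passed (limma; 5, 3, 5, 2, 2 and 2 at an unadjusted p under 0.05). Their medians were -0.32, -0.092, 0.018, -0.014, -0.11 and 0.066 in the same order.

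**Figure D5:**
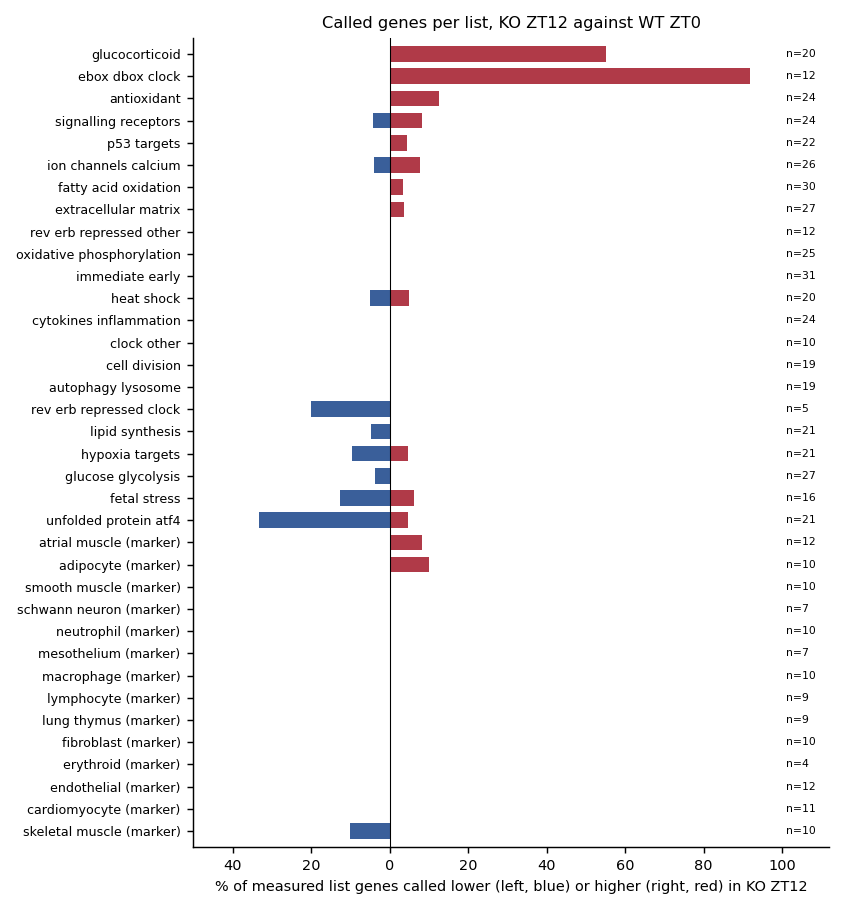
Share of the measured genes of each list (horizontal axis, in %; n beside each row) that were called higher (right, red) or lower (left, blue) in knockout at ZT12 than in wild type at ZT0. The E-box and D-box list reaches 91.7% and the glucocorticoid list 55%, both higher, and the unfolded protein list is the only one with over 20% lower.

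Lists of markers of other cell types held 0 or 1 called gene each, against 1.34% of all genes called in either direction. In the adipocyte list 1 of 10 rose, the lipid droplet gene Plin4, at 0.59 (adjusted p = 0.00121). Plin4 was at 0.52 without the 4 arrays (adjusted p = 0.137). The list mean ran from 4.99 to 6.79 in the knockout and from 4.98 to 6.04 at ZT0. Gpr22, a G protein-coupled receptor gene, was the 1 of 12 atrial markers that passed, and it rose, at 0.45 (adjusted p = 0.046). It was at 0.23 without the 4 arrays (adjusted p = 0.674), and its call was lost in 15 settings. Myl1 was the 1 of 10 skeletal muscle markers. Macrophage markers had a median of -0.34, and their list mean was 5.44 to 6.34 in the knockout and 6.14 to 6.42 at ZT0. Of 10 macrophage markers 0 passed (limma; 7 at an unadjusted p under 0.05), and Adgre1, which encodes F4/80, was at -0.56 (adjusted p = 0.0699). Alox5, given above, is also known as a gene of myeloid cells, and the part of the macrophage markers in its fall was not tested. Mesothelial markers had a median of -0.29, with 0 of 7 called (2 at an unadjusted p under 0.05). Of the other 8 marker lists besides cardiomyocytes (endothelial, smooth muscle, fibroblast, neutrophil, lymphocyte, erythroid, lung and thymus, Schwann cell and neuron) 0 genes passed (limma; 4, 1, 2, 0, 0, 0, 1 and 0 at an unadjusted p under 0.05).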

How the data were processed

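Biotinylated DNA made from 300 ng of total RNA of each heart was read on Affymetrix whole-transcript arrays. The deposited values were log2 summaries per probe set, for which the authors used RMA (background correction, quantile normalization, summary over probes), per the submitters' processing notes; its version is not given in the sources used here. The log2 scale was read from the values, with a range of 0.21 to 12.88 over 41345 probe sets and medians per array of 3.25 to 3.32. Correlations between arrays were 0.972 to 0.985, and arrays of a group differed with an SD of 0.367 to 0.471, so none was a copy. Quantile normalization holds overall levels equal, and a fold is 2 to the power of the log2 difference. RMA compresses the differences of dim genes. Arrays give no counts, so their number limits the precision (median SE 0.105).

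Probe sets were named by the platform annotation: 23521 list 1 gene, 1814 several and 16010 none, and 21994 of the 22180 genes were in the RefSeq table. For 1082 genes with several probe sets, the one with the highest mean was used. The test was limma (3.58.1, R 4.3.3), fitted as 1 linear model over all 19 arrays with 1 mean per group and eBayes without trend, two-sided, with Benjamini-Hochberg adjustment over 22180 genes and calls at an adjusted p under 0.05. All values after "adjusted p" are from it. Lists are given by counts and medians, with no set test. The 25 tested genes on each side of Nr1d1 follow the order of the RefSeq table.

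The genes to name were the called genes with the 15 largest differences in each direction, without clone names, predicted genes, pseudogenes and small RNAs, all genes of the 3 REV-ERB and E-box lists, Nr1d1 and called neighbours, and up to 4 called genes per other list or the 2 with the smallest p. The comparison, the gene lists and this rule were chosen with earlier results of these data known. Genes outside the rule are marked as such. Alternatives were another prior, only the 12 arrays, dim genes (mean under 4) left out, other uses of probe sets, other scalings, a replicate block, array weights, list means as covariates and leaving out each array. Leaving out the 4 arrays with an atrial list mean under 7 was added after the data were seen.

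On data simulated for this comparison over 22180 genes, 16%, 56%, 98% and 100% of genes shifted by 0.25, 0.5, 1 and 2 were recovered, and 2.88% of 139 calls were false. The noise was drawn separately for each gene. Variation that genes of an array share, such as that of the atrial markers, was not simulated, so the false share does not cover it. Replicate numbers did not pair the samples: same-numbered arrays had correlations of -0.055 to 0.041 between their deviations from the group means.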

Additional observations from a re-analysis of the deposited data

Results flagged for a closer look

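Among 248 groups of values (each named gene in the knockout and at ZT0), 13 had a highest or lowest array far from the rest; chance flags about 1 in 20 such groups. In the knockout the far array was the highest for Scn4b (replicate 4, 4.25; the next was 3.75), Has2 (replicate 1, 5.01; next 4.40), Il6 (replicate 1, 6.28; next 4.31), the gluconeogenic enzyme gene Pck1 (replicate 1, 6.18; next 4.38), the clock kinase gene Csnk1e (replicate 2, 5.55; next 5.44) and the complex I gene Ndufa1 (replicate 5, 9.02; next 8.81). It was the lowest for Plin4 (replicate 3, 7.34; next 7.54) and the Schwann cell factor gene Sox10 (replicate 4, 2.78; next 3.21). At ZT0 the far array was the highest for Herpud1 (replicate 5, 9.80; next 9.59) and Alox5 (replicate 7, 5.51; next 5.26). It was the lowest for Fabp7 (replicate 5, 3.61; next 4.08), Hspb7 (replicate 6, 10.57; next 10.74) and the mesothelial marker gene Lrrn4 (replicate 1, 2.703; next 3.16). Of the genes called, Scn4b, Has2, Plin4, Herpud1, Alox5 and Hspb7 were among these.

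Outside the gene tests, 35 probe sets that list no gene or several were called. The 3 with the largest rises stood 5.98, 5.91 and 5.49 log2 units above ZT0 and 5.93, 5.81 and 5.37 above wild type at ZT12. Among the falls, probe set 17218752 was at -1.36 relative to ZT0 (adjusted p = 0.00945) and at -1.19 relative to ZT12 (adjusted p = 0.0396). The rise in probe set 17256273 was 1.13 relative to ZT0 and 1.26 relative to ZT12 (adjusted p = 0.00255 and 0.00146). What these probe sets read was not tested.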

How the results depend on the processing

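The count of 298 called genes (214 higher, 84 lower) moved by over 1.5 times in 9 settings, 3 of which left out 1 array. It was 187 (138 higher, 49 lower) with only the 12 arrays compared, 548 (357, 191) with dim genes left out, when 10389 genes were tested, and 172 (134, 38) when all probe sets were tested. It was 182 (138, 44) with a replicate block, 168 (135, 33) after adjustment for the atrial list mean, of which 123 were among the 298, and 84 (72, 12) when the 4 arrays low in atrial markers were left out, of which 68 were. With a trend and robust prior 143 genes were lower. Leaving out 1 array gave 171 to 311 genes (134 to 220 higher, 37 to 91 lower), and the 3 that moved it that far were those without knockout replicate 4 (171) or 5 (192) or ZT0 replicate 5 (195). The number that pairs arrays across groups is a label only, and the block changed calls in both directions; 161 of its 182 genes were among the 298. Nr1d1 stayed at a positive difference that did not pass in any setting (0.17 to 0.32 without 1 array, adjusted p 0.296 to 0.715).

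Of the named genes, 10 that did not pass changed sign in some setting: E2f8 (-0.046; 0.033 without the 4 arrays, -0.12 to 0.058 without 1 array), Ulk1 (-0.0050; 0.012 with centred arrays, -0.056 to 0.031 without 1 array), Il6 (0.081 after the atrial adjustment), Pck1 (-0.026 with the adipocyte covariate, -0.23 to 0.302 without 1 array), G6pc (-0.14 to 0.014 without 1 array), Lmod1 (0.100 without the 4 arrays), Dpt (0.031 without the 4 arrays), Slc4a1 (-0.13 to 0.060 without 1 array), Hemgn (-0.030 with the replicate block, -0.049 after the atrial adjustment, -0.012 without the 4 arrays, -0.014 to 0.098 without 1 array) and Mbp (0.15 after the atrial adjustment, 0.058 without the 4 arrays, -0.085 to 0.021 without 1 array). The cause was not tested. Differences near 0.25 were mostly below what these numbers of hearts detect.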
